A study of Mus musculus with 5 samples.

Results

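The genes described here build the replication fork and supply it with nucleotides: the sliding clamp and its loader, single-strand binding protein, the replicative polymerases, the enzymes that finish the lagging strand, the GINS part of the helicase, fork protection factors, enzymes of nucleotide synthesis, and the genes that supply and place new histones. They were taken by gene name from a fixed set of 38 symbols that leaves out the Mcm helicase genes, and all 38 were found among the 33894 genes of the files. All 38 also passed the filter on low counts, which kept 13696 genes for testing. RNA was measured by bulk sequencing in mouse haematopoietic stem cells, which were isolated from marrow by flow sorting on the LSK stem and progenitor phenotype (no lineage markers, Sca1 and c-Kit present) with CD34 and Flt3 absent. The animals were 8 weeks old, and 2 libraries came from wild type (WT) and 3 from mice labelled Lrp5/6 dKO, which carry Vav-cre together with floxed alleles of both co-receptor genes (Lrp5 fl/fl, Lrp6 fl/fl). Lrp5 and Lrp6 are co-receptors for Wnt ligands, and Vav-cre drives recombination in the blood lineage. The labels name Cre in the dKO group only, so an effect of Cre and of the loss of the genes cannot be told apart. Each library was made by Smart-seq2, a full-length method for few cells, from 6K cells. Whether different libraries came from different mice is not stated, so the p-values reflect only how far these particular samples spread, which may be technical.

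Library totals ran from 16028512 to 28027458 counts. Lrp6 had 660 and 232 counts in WT against 790, 260 and 767 in the dKO-labelled libraries (log2 fold change 0.51, 95% interval -0.77 to 1.79). For Lrp5 the counts were 7 and 32 in WT against 37, 2 and 71 in the dKO-labelled libraries. Neither gene was lower in the latter, and gene-level totals hold no information on single exons, so directions below rest on the labels alone. Kit and Ly6a, which encodes Sca1, were present in every library, and so were transcripts of Cd34 and Flt3, the proteins the gate excluded. The library of dKO replicate 2 stood apart, with a highest correlation to any other library of 0.851 in log2 CPM across genes (CPM, counts scaled to library size, here with TMM factors), whereas the other 4 reached at least 0.906. WT replicate 2 held the most transcripts of granulocyte progenitors, with a sum over 7 marker genes of 43536 CPM against 6955 CPM in WT replicate 1 and 11817 to 16593 CPM in the dKO-labelled libraries. Of these markers Mpo was the most abundant, at 21486 CPM in WT replicate 2 and 3447 CPM in WT replicate 1.

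Replication copies DNA at forks where a helicase opens the duplex, polymerase alpha with primase starts each new strand, and polymerases epsilon and delta extend it while held on the template by the ring-shaped clamp PCNA. The genes for these proteins are switched on together by E2F transcription factors as a cell enters S phase, and most of their products are scarce in resting cells. Haematopoietic stem cells in adult marrow are mostly quiescent, so the level of these transcripts in a sorted population is commonly read as a sign of how many of its cells are in or near the cell cycle. In a bulk library, fewer cells of a type and less RNA per cell cannot be told apart.

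The replisome genes had lower values in the dKO-labelled libraries almost throughout, with Pole, the catalytic subunit of polymerase epsilon, as the exception. Of the 38 members 37 had a negative log2 fold change and 1 a positive one, with a median of -0.62, while 47.8% of all genes tested were negative and their median was 0.04. No member passed the threshold over all genes. The quasi-likelihood test of edgeR, adjusted after Benjamini and Hochberg, called 0 of 13696 genes (0.0%), and adjusted p over the members ran from 0.430 to 0.965. At an unadjusted p under 0.05 there were 17 lower members and 1 higher, against 5.19% of all genes lower and 4.94% higher (711 and 677 genes). In 29 members every library labelled dKO lay below both WT libraries in CPM, a pattern found in 15.6% of all genes. In Pole every library labelled dKO lay above both WT libraries, as in 13.7% of all genes. The 8 members whose groups overlapped were Rfc1, Rfc2, Pold1, Pold3, Rrm1, Gins3, Chaf1a and Timeless. DESeq2 called 5 members lower (Pcna, Rpa2, Gins2, Dtl and Tipin, adjusted p from 0.0129 to 0.0268), where it called 0.678% of genes lower, and limma-voom called 0.

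**Figure D1:**
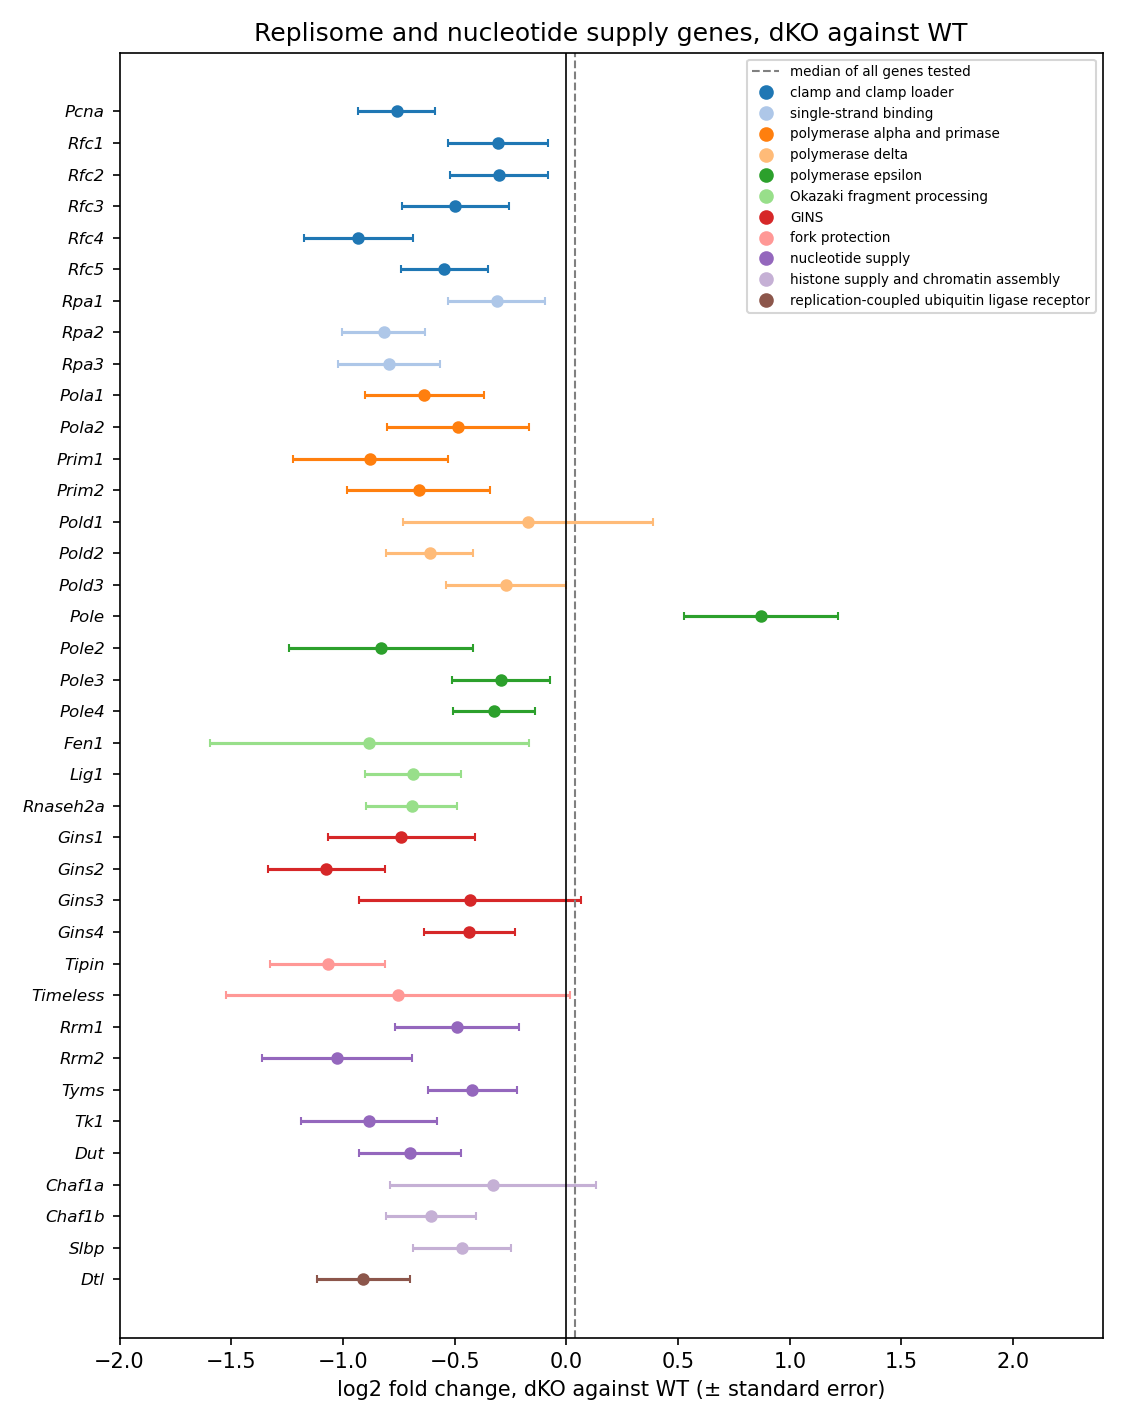
Log2 fold change of each of the 38 members, dKO against WT, with its standard error from edgeR's fit of 2 WT and 3 dKO libraries, coloured by role; the dashed line is the median of all genes tested. Pole lies at 0.87 to the right of 0 and the other 37 members lie to the left, from -1.07 for Gins2 to -0.17 for Pold1.

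Summed or averaged over all 38 members, the values were of like size in each library of a group. The summed level of the 38 members was 7476 and 7540.4 CPM in WT replicates 1 and 2 and 4586, 5406 and 5158 CPM in dKO replicates 1, 2 and 3. The groups did not overlap, with a WT mean of 7508 ± 45.2 CPM (SD, n = 2) and a mean of 5049.8 ± 420.3 CPM in the dKO-labelled libraries (SD, n = 3). As a mean over members of log2 CPM, relative to the midpoint of the group means, WT replicates 1 and 2 stood at 0.29 and 0.33 and dKO replicates 1, 2 and 3 at -0.34, -0.26 and -0.33. Over all genes tested the same mean was 0.05 and -0.04 in WT replicates 1 and 2. In dKO replicates 1, 2 and 3 it was 0.20, -0.31 and 0.10. The members thus lay no lower than the mean of all genes in dKO replicate 2. Single roles were less even. In WT replicates 1 and 2 nucleotide supply stood at 0.18 and 0.52 and the clamp and its loader at 0.39 and 0.17. In dKO replicates 1, 2 and 3 polymerase delta stood at 0.09, 0.06 and -0.81 and fork protection at -0.36, -1.76 and 0.32. The part of granulocyte progenitor transcripts, most abundant in WT replicate 2, was not tested. Without WT replicate 2, which leaves 1 WT library, the median of the members was -0.54 with 37 of 38 negative. Without both WT replicate 2 and dKO replicate 2 the median was -0.64 with 36 of 38 negative. A member's highest value lay in WT replicate 1 for 15 members and in WT replicate 2 for 18.

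Promoter sequences are shown because these genes had lower values together and share a known class of regulator. RefSeq promoters on GRCm38.p6, from 250 bases before to 50 bases after the start site, were at hand for 31 of the 38 members; Gins1, Gins2, Gins4, Pole, Prim2, Rfc2 and Tipin had none. The 4 members with the smallest unadjusted p and a promoter entry follow, with the E2F words (TTTCCCGC, TTTCGCGC, TTTGCCGC or TTTGGCGC on either strand) and the CCAAT words bound by NF-Y (CCAAT, or ATTGG on the other strand) in capitals.
Pcna, chr2:132253131-132253430, minus strand: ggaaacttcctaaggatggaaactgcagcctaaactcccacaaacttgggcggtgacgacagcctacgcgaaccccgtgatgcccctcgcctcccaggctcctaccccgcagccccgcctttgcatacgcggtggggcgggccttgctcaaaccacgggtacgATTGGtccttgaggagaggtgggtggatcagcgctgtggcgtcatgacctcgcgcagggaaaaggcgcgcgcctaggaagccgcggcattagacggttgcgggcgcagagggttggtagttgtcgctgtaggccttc
Rpa2, chr4:132768110-132768409, plus strand: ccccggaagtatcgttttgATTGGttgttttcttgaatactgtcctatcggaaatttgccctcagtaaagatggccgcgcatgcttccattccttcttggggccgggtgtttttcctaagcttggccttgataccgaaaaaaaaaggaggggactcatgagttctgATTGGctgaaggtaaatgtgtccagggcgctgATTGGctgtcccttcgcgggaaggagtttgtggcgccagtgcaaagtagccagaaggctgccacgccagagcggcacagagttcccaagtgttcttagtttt
Dtl, chr1:191575495-191575794, minus strand: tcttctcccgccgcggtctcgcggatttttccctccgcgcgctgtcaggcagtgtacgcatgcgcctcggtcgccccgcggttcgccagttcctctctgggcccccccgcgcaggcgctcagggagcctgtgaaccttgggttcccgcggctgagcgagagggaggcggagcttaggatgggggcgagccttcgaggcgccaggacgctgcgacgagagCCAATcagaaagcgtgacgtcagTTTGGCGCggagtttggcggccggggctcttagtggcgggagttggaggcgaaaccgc
Rfc4, chr16:23127681-23127980, minus strand: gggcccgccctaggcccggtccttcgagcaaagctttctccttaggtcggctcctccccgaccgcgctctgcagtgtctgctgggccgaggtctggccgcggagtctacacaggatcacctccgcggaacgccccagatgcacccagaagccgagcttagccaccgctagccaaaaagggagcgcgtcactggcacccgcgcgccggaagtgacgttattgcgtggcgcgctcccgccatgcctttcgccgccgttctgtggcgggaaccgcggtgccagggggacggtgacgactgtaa

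In Dtl the CCAAT word begins at position -31 and the E2F word at position -8, counted from the start site on the promoter's own strand. Rpa2 holds 3 CCAAT words, Pcna 1 and Rfc4 none, and none of these 3 promoters holds one of the E2F words, which says only that those letters are not in this window.

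E2F words were found in 9 of the 31 members with a promoter (29.0%), against 2.60% of the 27025 genes with a promoter of this length. CCAAT words were in 51.6% of members and 41.1% of genes, the cell cycle words TTTGAA or TTCGAA in 12.9% and 21.7%, and TATAAA in 6.45% and 15.7%. The members' promoters were rich in G and C, with a median of 63.0% and 25 CpG sites against 52.7% and 7 over all genes. Each E2F word itself holds a CpG, and the shares above were not matched for base composition. A match is a description and not evidence that a factor binds. The E2F words of the other 8 members that hold one are given with their flanks, the word of each line in capitals. Rfc3 holds 2 of them close together, each marked on its own line.
Gins3, chr8:95633507-95633536, plus strand: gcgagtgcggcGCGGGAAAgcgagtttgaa
Lig1, chr7:13278841-13278870, plus strand: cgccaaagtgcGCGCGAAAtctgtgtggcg
Pola1, chrX:93632275-93632304, minus strand: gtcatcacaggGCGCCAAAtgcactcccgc
Pold1, chr7:44548766-44548787, minus strand: cgtatcttgtgGCGGGAAAagc
Pold3, chr7:100121467-100121496, minus strand: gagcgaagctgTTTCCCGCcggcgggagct
Pole2, chr12:69228162-69228191, minus strand: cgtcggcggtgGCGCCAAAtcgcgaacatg
Pole4, chr6:82652890-82652919, minus strand: ctctacccggcGCGGGAAAggggccgaaat
Rfc3, chr5:151651200-151651229, minus strand: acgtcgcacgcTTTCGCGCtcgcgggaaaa
Rfc3, chr5:151651190-151651219, minus strand: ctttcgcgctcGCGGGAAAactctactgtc

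The 9 members with an E2F word had log2 fold changes from -0.91 to -0.17 with a median of -0.50. The 22 with a promoter and no such word had values from -1.03 to -0.29 with a median of -0.65. The ranges of these values overlapped. Groups overlapped in CPM for 3 of the 9 (Gins3, Pold1 and Pold3) and, among the 22, for Rfc1, Rrm1, Chaf1a and Timeless. Over all genes tested the groups of 9675 of 13696 overlapped. The difference between these sets was not tested.

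Among the clamp and its loader, Pcna and Rfc4 showed the widest gap between the groups. Pcna encodes the ring that tethers polymerases and many repair factors to DNA. It stood at 516 and 466 CPM in WT and at 264, 307 and 299 CPM in the dKO-labelled libraries, so the groups lay far apart and each was tight. The WT mean was 1.69 times the dKO mean (log2 fold change -0.76, SE 0.17, 95% interval -1.16 to -0.36, edgeR unadjusted p = 0.00237, adjusted p = 0.430). Rfc4, a small subunit of the loader that opens the ring, stood at 154 and 134 CPM in WT and at 77.0, 90.1 and 60.1 CPM in the dKO-labelled libraries (log2 fold change -0.93, SE 0.25). Rfc5 and Rfc3, also small subunits, had log2 fold changes of -0.55 and -0.50 with groups that did not overlap in CPM but did in TPM. Rfc3 was at -0.28 without WT replicate 1. Rfc1, the large subunit, and Rfc2 had -0.31 and -0.30, and in both a library labelled dKO reached the WT range. Single libraries set these small values: Rfc1 was at -0.072 without WT replicate 1 and -0.52 without WT replicate 2, and Rfc2 at -0.18 without WT replicate 1 and -0.14 without dKO replicate 1. In dKO replicate 2 Rfc2 stood at 641 CPM, above the 636 CPM of WT replicate 2.

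Loader subunits work in equal numbers in one complex, but their transcripts were far from equal. On the TPM scale, which divides by transcript length and allows levels of different genes to be compared, Rfc2 ranged from 542 to 859 TPM over the 5 libraries. Rfc3, Rfc4 and Rfc5 lay between 86.2 and 235 TPM, ranges that overlapped, and Rfc1 between 33.2 and 50.2 TPM. Rfc1 was lowest and Rfc2 highest of the 5 subunits in every library. Rfc2 shares 15.1% of its exon bases with Lat2 on the opposite strand in the GENCODE M21 annotation, and Smart-seq2 in its standard form does not mark strand.

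**Figure D2:**
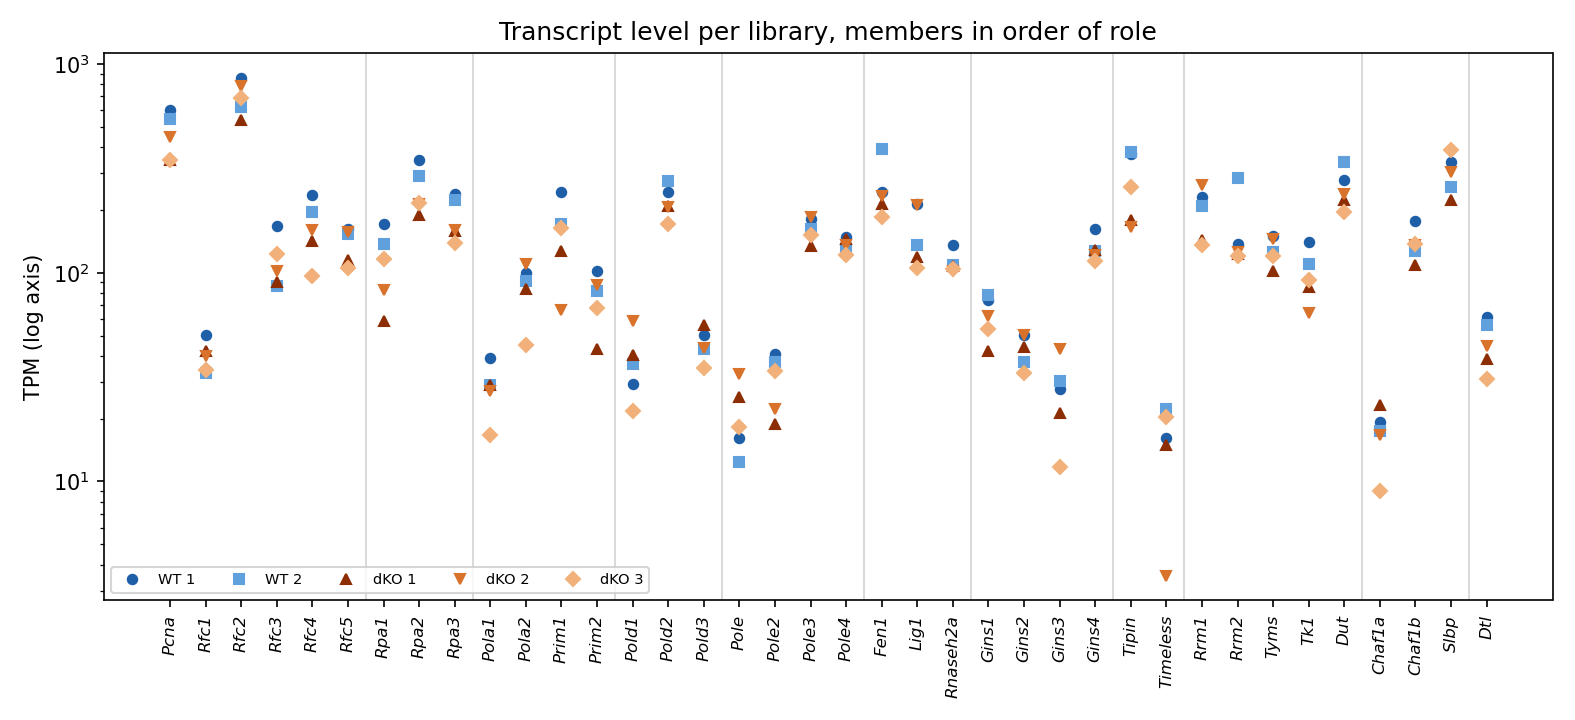
TPM of each member in each of the 5 libraries on a log axis, members in order of role with grey lines between roles. Rfc2 and Pcna are the most abundant, Rfc2 reaching 859 TPM, and the lowest point is Timeless at 3.54 TPM in dKO replicate 2.

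The single-strand binding protein RPA coats unwound template. Rpa2, its middle subunit, stood at 357 and 372 CPM in WT and at 186, 198 and 237 CPM in the dKO-labelled libraries (log2 fold change -0.82, SE 0.19, edgeR unadjusted p = 0.00247, adjusted p = 0.430). Rpa3, the smallest subunit, stood at 92.9 and 100.3 CPM in WT and at 55.0, 57.0 and 55.0 CPM in the dKO-labelled libraries. Both genes were separated by group, and the 3 dKO values of Rpa3 were almost equal. Rpa1, the large DNA-binding subunit, differed less in counts, at 319 and 289.9 CPM in WT and 190.3, 268 and 278 CPM in the dKO-labelled libraries (log2 fold change -0.31, SE 0.22, and -0.16 without dKO replicate 1). In TPM it differed more, at 171 and 138 TPM in WT and 58.6, 83.0 and 116 TPM in the dKO-labelled libraries.

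**Figure D3:**
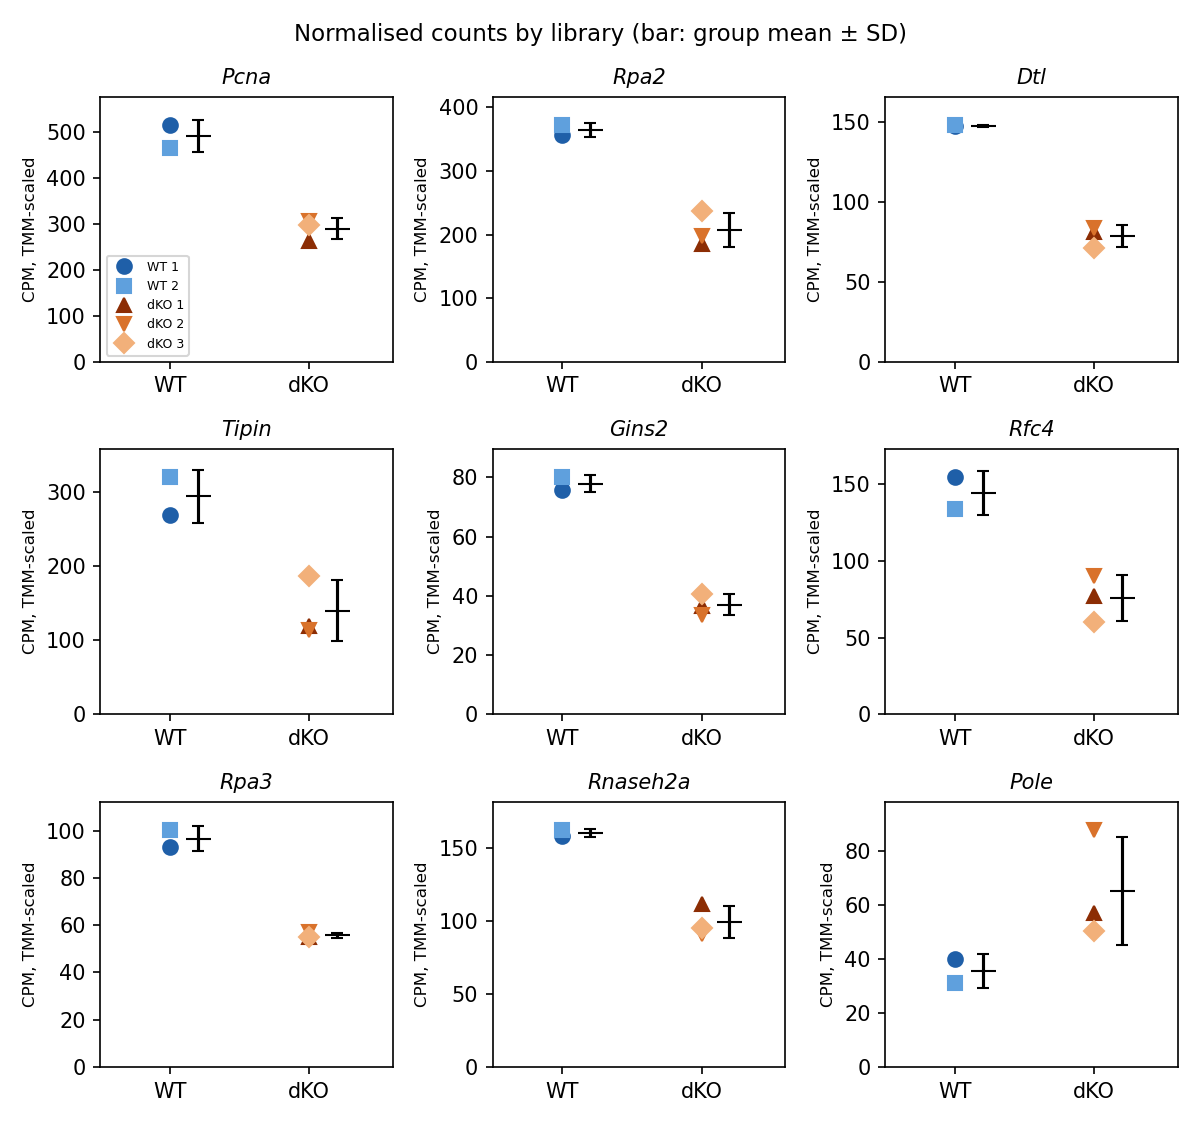
Normalised counts (CPM scaled by TMM) of the 8 members with the smallest unadjusted p and of Pole in each library, with group mean ± SD beside the points (WT n = 2, dKO n = 3). In the 8 members the dKO points lie below both WT points, and in Pole above them.

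Polymerase alpha with primase lays down the short primer from which each new strand begins. In CPM its 4 genes lay lower in every dKO-labelled library than in both WT libraries (15.6% of all genes). Prim1, the catalytic primase subunit, stood at 255 and 203 CPM in WT and at 124, 72.6 and 177 CPM in the dKO-labelled libraries, a wide spread within the latter group (log2 fold change -0.88, SE 0.35). Pola1, the polymerase's catalytic subunit, stood at 113 and 102 CPM in WT and at 80.1, 75.7 and 51.5 CPM in the dKO-labelled libraries (log2 fold change -0.64, SE 0.27). Prim2 and Pola2 had log2 fold changes of -0.66 and -0.48, with unadjusted p of 0.0742 and 0.166 by edgeR. Prim2 was at -0.41 without dKO replicate 1, and Pola2 at -0.23 without dKO replicate 3 and -0.74 without dKO replicate 2. In TPM, Prim1 had 66.4 to 243, Prim2 43.3 to 102, Pola2 44.9 to 109.7 and Pola1 16.7 to 38.9, the lowest of the 4 in each library. On that scale the groups of Prim2, Pola2 and Pola1 overlapped, and those of Prim1 did not.

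Polymerase delta extends the lagging strand. Of the 3 members that encode it, 1 was separated by group, as lower (15.6% of all genes): Pold2, the scaffold subunit. Pold2 stood at 232 and 304 CPM in WT and at 179, 182 and 166 CPM in the dKO-labelled libraries (log2 fold change -0.61, SE 0.19). Pold1, the catalytic subunit, stood at 58.9 and 70.5 CPM in WT and at 68.3, 85.9 and 18.5 CPM in the dKO-labelled libraries. Its negative value of -0.17 rested on dKO replicate 3, without which it was 0.26, and leaving out any other library moved it to between -0.56 and -0.040. Pold3, the subunit that binds the clamp, had -0.27 with overlapping groups, and -0.12 without dKO replicate 3 or -0.48 without dKO replicate 1. Pold4, the small accessory subunit, is no member and belongs to the list of further replication genes. It stood at 16.6 and 24.0 CPM in WT and at 29.1, 32.6 and 31.1 CPM in the dKO-labelled libraries, so its groups were separated in the other direction (log2 fold change 0.61, SE 0.37, edgeR unadjusted p = 0.140, adjusted p = 0.628).

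Polymerase epsilon, which extends the leading strand, held the one member with a positive value. Pole, its catalytic subunit, stood at 40.1 and 31.2 CPM in WT and at 57.3, 87.9 and 50.4 CPM in the dKO-labelled libraries (log2 fold change 0.87, SE 0.34, 95% interval 0.07 to 1.67, edgeR unadjusted p = 0.0361, adjusted p = 0.469). Its value stayed positive under each library left out, from 0.60 to 1.06. On the TPM scale it was 16.1 and 12.3 in WT and 25.4, 32.6 and 18.3 in the dKO-labelled libraries, again without overlap. The partner subunits went the other way. Pole2 stood at 40.5 and 42.9 CPM in WT and at 16.7, 19.1 and 34.5 CPM in the dKO-labelled libraries (log2 fold change -0.83, SE 0.41). Pole3 and Pole4, small histone-fold subunits, had -0.29 and -0.32, and without dKO replicate 1 Pole3 was at -0.14. The difference between Pole and its partners was not itself tested. Pole3 and Pole4 lay between 122 and 184 TPM and Pole and Pole2 between 12.3 and 40.8 TPM, so the accessory transcripts were the more abundant in every library.

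The enzymes that join lagging-strand fragments had lower values together. Lig1, the ligase that seals them, stood at 285 and 226 CPM in WT and at 144, 189.7 and 143 CPM in the dKO-labelled libraries (log2 fold change -0.69, SE 0.22). Rnaseh2a, the catalytic subunit of the nuclease that removes ribonucleotides, stood at 159 and 163 CPM in WT and at 112, 91.2 and 95.6 CPM in the dKO-labelled libraries (log2 fold change -0.69, SE 0.20). Fen1, the flap nuclease, had few counts, 200 and 266 in WT against 146, 93 and 104 in the dKO-labelled libraries, between 3.85 and 10.7 CPM. Its TPM was high, at 243 and 392 in WT and 214, 233 and 185 in the dKO-labelled libraries. In the annotation 84.2% of Fen1's exon bases also lie in other genes of the files, most of them in the antisense gene Gm10143, and the 38 members' next lowest ratio of mean CPM to mean TPM was that of Rpa3, at 0.392 against 0.0261 for Fen1.

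GINS joins the Mcm ring and Cdc45 to form the active helicase. Gins2 had the most negative count-based value of the 38 members, at 75.9 and 80.0 CPM in WT and 36.6, 33.7 and 40.8 CPM in the dKO-labelled libraries (log2 fold change -1.07, SE 0.26, edgeR unadjusted p = 0.00364, adjusted p = 0.430). In TPM the groups overlapped, at 50.1 and 37.4 in WT and 44.2, 50.2 and 33.2 in the dKO-labelled libraries. Of its exon bases 67.3% also belong to Gse1 on the other strand, and the counts of Gse1 were 628 and 575 in WT against 1216, 932 and 1016 in the dKO-labelled libraries. Without strand, reads from the shared bases cannot be assigned, so the value of Gins2 is uncertain. Gins1, Gins4 and Gins3 had log2 fold changes of -0.74, -0.43 and -0.43, and in Gins3 the 53.2 CPM of dKO replicate 2 exceeded both WT values. Gins3 was at -0.996 without that library, -0.11 without dKO replicate 3 and -0.26 without WT replicate 2.

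Tipin and Timeless form a complex that steadies the fork when it stalls. Tipin stood at 268 and 319.6 CPM in WT and at 119.6, 113 and 187 CPM in the dKO-labelled libraries (log2 fold change -1.07, SE 0.26, edgeR unadjusted p = 0.00349, adjusted p = 0.430). Its partner was not separated by group. Timeless stood at 49.2 and 71.2 CPM in WT and at 38.3, 5.74 and 62.8 CPM in the dKO-labelled libraries, and the low value came from dKO replicate 2. The log2 fold change of Timeless was -0.75 with all libraries, -0.25 without dKO replicate 2, -0.47 without WT replicate 2, 0.038 without both, and -1.44 without dKO replicate 3. Tipin was the more abundant on the TPM scale in every library, at 166 to 381 against 3.54 to 22.3 for Timeless.

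Of the 5 genes for nucleotide supply 4 were separated by group in CPM, all as lower (15.6% of all genes). The size of the gap in Rrm2 depended on 1 library. Ribonucleotide reductase, which makes deoxynucleotides, has the large subunit Rrm1 and the S-phase subunit Rrm2. Rrm2 stood at 176 and 424 CPM in WT and at 144, 140.0 and 158 CPM in the dKO-labelled libraries. Its log2 fold change was -1.03 with all libraries and -0.26 without WT replicate 2, the library rich in granulocyte progenitor transcripts. Rrm1 stood at 532 and 557 CPM in WT and at 299, 549 and 318 CPM in the dKO-labelled libraries, where dKO replicate 2 lay within the WT range (log2 fold change -0.49, and -0.81 without that library). Tk1, the thymidine kinase of cycling cells, stood at 148 and 139 CPM in WT and at 79.8, 50.8 and 102 CPM in the dKO-labelled libraries (log2 fold change -0.88, SE 0.31). Dut, which removes dUTP, had -0.70, and -0.43 without WT replicate 2. Tyms, which makes thymidylate, had -0.42 with an unadjusted p of 0.0694 by edgeR.

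Dtl directs a ubiquitin ligase to proteins bound to PCNA on replicating DNA. It stood at 148 and 148 CPM in WT and at 81.5, 83.8 and 71.3 CPM in the dKO-labelled libraries, a gap far wider than the spread within either group (148 ± 0.653 CPM, SD, n = 2, against 78.9 ± 6.67 CPM, SD, n = 3). The log2 fold change was -0.91 (SE 0.21, edgeR unadjusted p = 0.0025, adjusted p = 0.430), and it lay between -0.95 and -0.84 under each library left out. Chaf1b, a subunit of the chaperone that places histones behind the fork, stood at 218 and 179 CPM in WT and at 118, 129.9 and 143 CPM in the dKO-labelled libraries (log2 fold change -0.61). Its partner Chaf1a had -0.33 with overlapping groups, -0.66 without dKO replicate 1 and -0.047 without dKO replicate 3, and 52.5% of its exon bases also belong to Ubxn6. Slbp, which binds the stem-loop of histone mRNAs, had -0.47 in counts. On the TPM scale its groups overlapped, and limma on log2(TPM + 1) gave 0.00, or -0.19 when the TPM values were scaled by TMM.

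Counts and TPM gave the same direction for most members, but fewer were separated by group on the deposited TPM. Separated in CPM but overlapping there were Rfc3, Rfc5, Pola1, Pola2, Prim2, Pole3 and Pole4. So were Lig1, Tyms, Gins2, Gins4, Chaf1b and Slbp. The share of all genes separated on the deposited TPM was not counted, so this drop cannot be called particular to the members. On the deposited TPM the median of all genes was 0.14, against 0.04 in counts, and that of the members -0.36 with 35 of 38 negative. When the TPM values were scaled by TMM, an alternative chosen after the data were seen, the median of all genes was 0.00, that of the members -0.55, and 37 of 38 were negative. Across members the log2 fold changes from counts and from scaled TPM correlated at Pearson 0.789 and Spearman 0.700 (38 genes of the same libraries, which are not independent replicates). The widest gaps were those of Gins2 (-1.07 in counts and -0.23 in scaled TPM) and Rpa1 (-0.31 and -1.07).

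**Figure D4:**
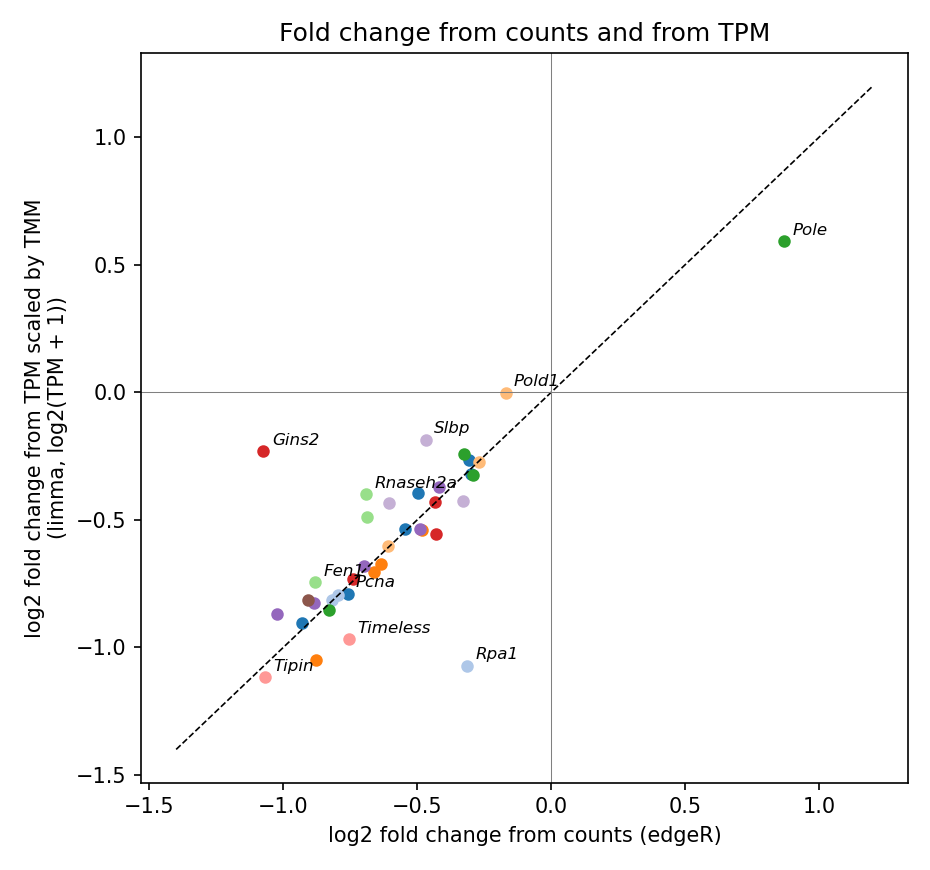
Log2 fold change of each member from counts (horizontal axis, edgeR) against that from TPM scaled by TMM (vertical axis, limma on log2(TPM + 1)), coloured by role as in the plot of fold changes; the dashed line marks equal values. Most points lie near the line, Gins2 above it and Rpa1 below it.

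Other genes of the same pathway had values of like size, whereas polymerases of DNA repair did not. Of 38 further replication genes tested, among them the Mcm helicase and origin genes, 36 were negative with a median of -0.63, 15 had an unadjusted p under 0.05 as lower and 0 as higher (5.19% and 4.94% of all genes), and in 26 every dKO-labelled library lay below both WT libraries (15.6% of all genes). The 3 with the smallest p were Gmnn, the licensing inhibitor (log2 fold change -1.19), Mcm4 (-0.77) and Cdc45, the GINS partner (-1.59). Of 34 other genes of nucleotide metabolism 30 were negative with a median of -0.51, and at an unadjusted p under 0.05 there were 15 lower and 0 higher, read against the same all-gene shares. The smallest p belonged to Nme1, a nucleoside diphosphate kinase (-0.90), Gart of purine synthesis (-0.98) and Ctps, which makes CTP (-1.28). Of 14 repair and translesion polymerase genes 5 were negative and 9 positive, with a median of 0.09 and 0 in either direction at an unadjusted p under 0.05. Polg, Poll and Poln had the smallest p there, with log2 fold changes of 0.65, 0.56 and -1.56. The difference between this list and the members was not tested.

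Genes for the E2F and Rb families, which control the members' transcription, were listed together with their partners Lin9, Lin37, Lin52, Lin54 and Mybl2. This list showed no common direction. Of 18 tested 7 were negative and 11 positive, with a median of 0.16. Without WT replicate 2, which leaves 1 WT library, 10 were negative and the median was -0.04. Tfdp1, a partner of E2F factors, stood at 260.2 and 308 CPM in WT and at 178, 175 and 193 CPM in the dKO-labelled libraries (log2 fold change -0.64). Tfdp2, another partner, had 0.76, and Rbl2, a Rb relative that represses E2F targets in resting cells, stood at 93.1 and 53.9 CPM in WT and at 128, 127 and 104 CPM in the dKO-labelled libraries (log2 fold change 0.71). In both of the latter the libraries labelled dKO lay above both WT libraries (13.7% of all genes).

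The markers of cycling cells were lower in the dKO-labelled libraries. All 14 were negative with a median of -0.55, 3 of them (Bub1, Ccna2 and Birc5) at an unadjusted p under 0.05 (5.19% of all genes lower), and in 6 every dKO-labelled library lay below both WT libraries (15.6% of all genes). Relative to the midpoint of the group means, these markers averaged 0.66 in WT replicate 2 and -0.10 in WT replicate 1, against -0.54, -0.12 and -0.17 in dKO replicates 1, 2 and 3. WT replicate 1 thus lay near 2 of the libraries labelled dKO in cycling markers, while in the members it lay at 0.29, close to WT replicate 2. Without WT replicate 2 the median of the cycling markers was -0.10 with 8 of 14 negative, and that of the members -0.54 with 37 of 38 negative. The difference between the lists was not tested.

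**Figure D5:**
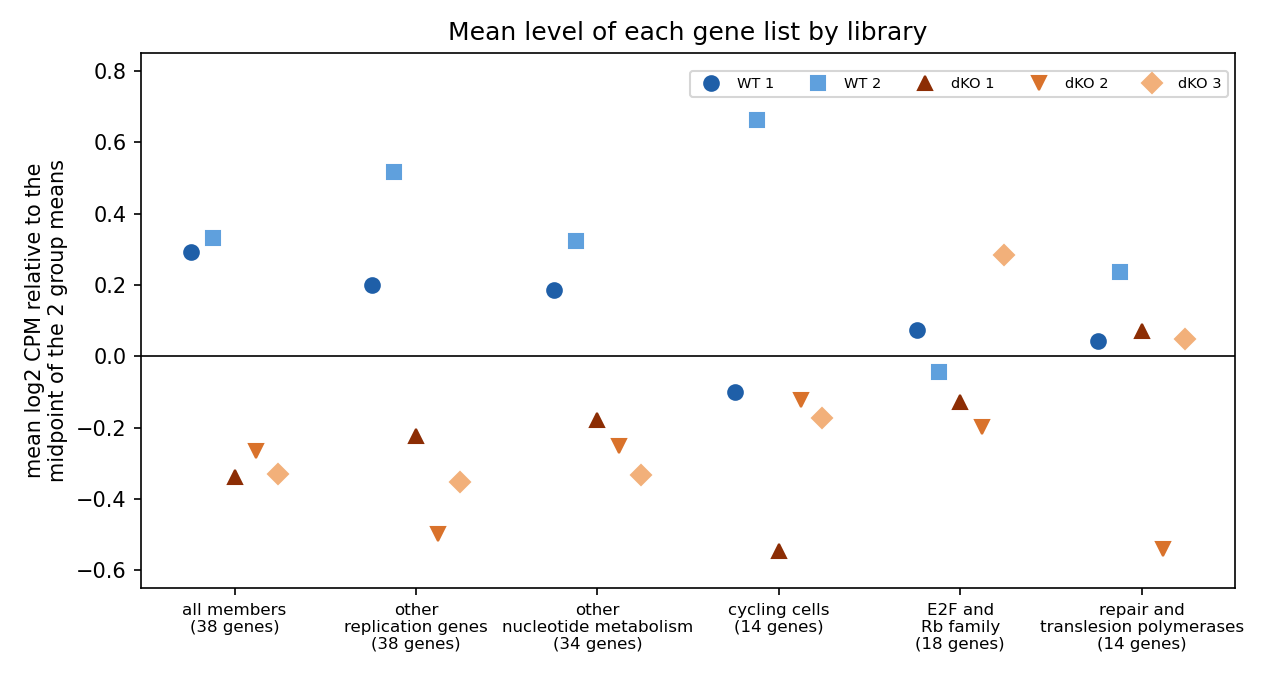
Mean log2 CPM of each gene list in each library, relative to the midpoint of the WT and dKO means of each gene. For the 38 members both WT libraries lie near 0.3 and the 3 dKO libraries near or below -0.26, while for cycling cell markers WT replicate 1, at -0.10, lies beside 2 dKO libraries.

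Markers of other cells in the sort were set beside the members. Granulocyte progenitor markers had lower values for 7 of 7 tested genes, but their sums overlapped between groups as given above. Erythroid markers summed to 31.7 and 37.4 CPM in WT and to 125, 116 and 107 CPM in the dKO-labelled libraries, with Car1 the most abundant. Megakaryocyte markers summed to 64.7 and 58.1 CPM and to 118, 118 and 82.4 CPM, and those of dendritic cells and MHC class II to 197 and 144 CPM and to 263, 359 and 655 CPM. B cell marker sums overlapped (99.7 to 141 CPM in WT, 105 to 266 CPM in the dKO-labelled libraries), as did those of mast cells and basophils (185 to 398 and 299 to 942 CPM). In the T and NK cell list Cd3e had no count in any library, and the sum, mostly Nkg7, was 706 to 1881 CPM in WT and 562 to 688 CPM in the dKO-labelled libraries. Genes of the stem cell gate summed to 2757 and 1783 CPM in WT and to 3097, 3172 and 3163 CPM in the dKO-labelled libraries. The part of these cells in the members' values was not tested.

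A processed pseudogene of Pcna differed between the groups in the direction opposite to its parent. Pcna-ps2, 99.2% identical to Pcna over 781 aligned bases, was counted 4 and 4 times in WT against 213, 121 and 242 times in the dKO-labelled libraries, or 0.152 and 0.160 CPM against 7.85, 7.31 and 8.97 CPM. The log2 fold change was 5.64 (SE 1.13, 95% interval 3.03 to 8.26, edgeR unadjusted p = 0.00114, adjusted p = 0.430). It was chosen after its values were seen. Its counts equalled 0.0295% and 0.0344% of those of Pcna in WT and at least 2.38% in each of the dKO-labelled libraries. Near-identical copies make the split of reads uncertain, but adding the 2 genes left Pcna at 516 and 467 CPM in WT and 272, 314 and 308 CPM in the dKO-labelled libraries. Pcna-ps1 had no count in any library, and copies of Rpa3, Slbp and Rnaseh2a had 6 counts or fewer in every library.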

How the data were processed

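For each of 5 samples the authors deposited unnormalised read counts by gene and, separately, TPM (transcript levels corrected for length and depth). RSEM 1.2.31, HTSeq, TopHat2 2.1.1, Trimmomatic, FastQC 0.11.5, DESeq2 and build mm9 are listed in the submitters' processing notes, without saying which tool made which values. Of 33924 rows 30 name no gene (0.216% to 0.269% of counts) and were left out. Counts were tested with edgeR 4.0.16 (R 4.3.3): TMM scaling, filterByExpr, robust quasi-likelihood fit, Benjamini-Hochberg adjustment over all genes, no covariate. The biological coefficient of variation was 67.9%. SE was taken from the F statistic. Where no read was counted, 3 counts set the limit, 0.107 to 0.187 CPM by library (counting error only).

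Members and lists were chosen with earlier results of these data known. All 38 members are named, with values in every library for the 8 with the smallest p and for Pole; other values were picked after they were seen. From other lists the 3 genes with the smallest p are named. Overlaps and copies (at least 90% identical over 300 bases and 20% of the transcript) used GENCODE M21 (GRCm38), promoters RefSeq GRCm38.p6; neither is the files' build, so no other coordinates are given. The alternatives used limma 3.58.1 and DESeq2 1.42.0 with other scalings, filters and units, a replicate block, and leaving out single libraries.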

Additional observations from a re-analysis of the deposited data

How the results depend on the processing

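The members were lower in 35 to 37 of 38 cases under each alternative that kept all of them. RLE or upper-quartile scaling and a floor of 5 CPM kept 0 genes called by edgeR. The count of genes called was 8 with no filter, 245 by DESeq2, 5 by limma on log2(TPM + 1), 2 on log2(TPM + 0.1), 1 on TPM scaled by TMM, and 1 without WT replicate 2 and dKO replicate 2. With each library left out it ran from 0 to 5, the 5 being without WT replicate 1. Members lower at an unadjusted p under 0.05 numbered 8 on log2(TPM + 1) and 8 on log2(TPM + 0.1) by limma, against 17 with counts by edgeR. Of all 13696 genes 1258, 1259 and 1388 passed in either direction. By edgeR 9 members passed without dKO replicate 1 and 22 without dKO replicate 2. The genes passing in either direction were 1164 of 13136 and 1313 of 13474. The members' median was -0.67 by limma-voom, -0.36 and -0.37 on log2(TPM + 1) and log2(TPM + 0.1), -0.55 on TPM scaled by TMM, and -0.66 to -0.54 with each library left out. Leaving out Fen1, Gins2 and Chaf1a, whose exons lie mostly in other genes, gave -0.61.

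Pold1 turned positive on log2(TPM + 1) (0.18), on log2(TPM + 0.1) (0.19) and without dKO replicate 3. It was also positive with the replicate block (0.25), in which dKO replicate 3 does not inform the contrast. Its values ranged from -0.56 to 0.26 with each library left out. Slbp was at 0.0036 on log2(TPM + 1) and on log2(TPM + 0.1), and at -0.19 on TPM scaled by TMM. Timeless was at 0.038 without WT replicate 2 and dKO replicate 2, and ranged from -1.44 to -0.25 with each library left out. The cause was not tested in these cases.

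Replicate numbers 1 and 2 occur in both groups, and no pairing is known. Samples of the same number correlated at 0.03 and 0.05 in their deviations from the group mean. With 2 WT libraries these deviations mirror each other, and WT replicate 1 also correlated at 0.03 with dKO replicate 3. These values therefore cannot show whether samples are paired. With the replicate block 36 of 38 members were lower, the median was -0.61, and 1 gene was called. By edgeR 16 members were lower at an unadjusted p under 0.05, where 1168 of 13696 genes passed in either direction. Replicate 3 exists in the dKO group only, so dKO replicate 3 does not inform this contrast. The block is therefore close to leaving that library out and is no separate check.

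With 2 WT libraries, whether a member was called depended on the test: edgeR called 0 and DESeq2 5. Fen1, with 93 to 266 counts, was the member with the least depth.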
